A study of Saccharomyces cerevisiae with 11 samples.

Results

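The 9 genes described here encode the enzymes that build and break down glycogen in budding yeast. They were chosen by gene name, as 9 of the 6256 genes on the array, with 1 probe each: GLG1, GLG2, GSY1, GSY2, GLC3, PGM2, UGP1, GPH1 and GDB1. Their log2 ratios on all 11 arrays, and their differences between arrays with and without trichostatin A (TSA), were known when the group was put together. Those values are therefore a description of these arrays, and no test of the group is given. All 9 were detected in both channels of all 11 arrays and passed the filter on low signals.

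Glycogen is the branched glucose polymer in which yeast stores carbohydrate. Glucose 6-phosphate is turned into glucose 1-phosphate by phosphoglucomutase and activated to UDP-glucose, glycogenin starts a chain, glycogen synthase extends it, and the branching enzyme adds side chains. Phosphorylase and the debranching enzyme return the glucose. In growing yeast on glucose these genes are held low by protein kinase A and include known targets of the stress activators Msn2 and Msn4, so the store fills as glucose runs out or under stress.

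The study compared strains that each lack 1 histone chaperone gene, with and without TSA, an inhibitor of histone deacetylases, on Agilent arrays with 2 colours. The groups are the asf1, chz1, nap1, rtt106 and vps75 deletions with TSA, wild type with TSA, and the same 5 deletions without TSA, each on 1 array. All strains derive from BY4742, a laboratory strain that also lacks HIS3, LEU2, LYS2 and URA3, and were grown at 30 °C in rich medium with glucose. TSA was added at 10 µM for 1 hour to cultures at an optical density of 0.5. The density of the untreated cultures was not given in the sources used here, so TSA and 1 more hour of growth cannot be told apart. How many clones stand behind each strain was not given either. Every array was set against RNA that the sample descriptions call untreated wild type, whereas the channel 1 labels name the untreated deletion strain for 6 arrays (all 5 deletions treated with TSA, and chz1 untreated). The deleted gene was present in the reference channel of these arrays, so wild type was taken. The chz1 array counted here as untreated carries glucose as its treatment label, and whether its culture was handled differently was not given in the sources used here.

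Ratios are experimental over reference RNA on the log2 scale, the opposite of most deposited columns. In its own strain the deleted gene stood between −4.53 and −2.86 on the 10 deletion arrays, while its reference signal was at least 716. On the nap1 array without TSA this gene showed that the channels were exchanged, and that array was turned. The wild type array has no deleted gene, so its direction is only likely. Channel medians lay between 358 and 1097, and correlations between an array's 2 repeat measurements, across genes, were 0.81 to 0.97. The chz1 array without TSA stood apart in its reference RNA, as described below. In the main processing, mean TSA differences by ratios are given with and without it. Counts of members over 5 strains include it. No strain and treatment had a second array.

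Without TSA, the asf1 deletion had the highest values of most of these genes. Phosphorylase GPH1 (YPR160W) stood at 2.55 on this log2 scale, or 5.87-fold over wild type, and phosphoglucomutase PGM2 (YMR105C) at 1.76, or 3.39-fold. The branching enzyme gene GLC3 (YEL011W) stood at 1.37, the synthase gene GSY2 (YLR258W) at 1.03, its paralog GSY1 (YFR015C) at 0.83 and the debranching enzyme gene GDB1 (YPR184W) at 0.73. Thus 6 of the 9 genes passed 1.5-fold in the asf1 deletion, where 4.56% of the 5921 genes tested were that much higher. UGP1 (YKL035W), which makes UDP-glucose, had 0.53 there, and the glycogenin genes GLG2 (YJL137C) and GLG1 (YKR058W) had 0.24 and 0.06.

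The other deletions without TSA had lower ratios of these genes than asf1, with some exceptions. In the rtt106 deletion the median of the 9 ratios was 0.29 and GPH1 alone passed 1.5-fold, at 0.60 (4% of all genes were that much higher). In the nap1 deletion the median was 0.31, and 0 of 9 passed (1.99% of all genes). The vps75 deletion had a median of −0.02, with GLC3 at 0.82 as the only member past 1.5-fold (3.8% of all genes) and GSY1 at −0.32. The median over all genes tested lay within 0.01 of 0 on every array. GLC3 was the only member above 0 on all 5 arrays without TSA, as were 5.32% of the genes tested.

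**Figure D1:**
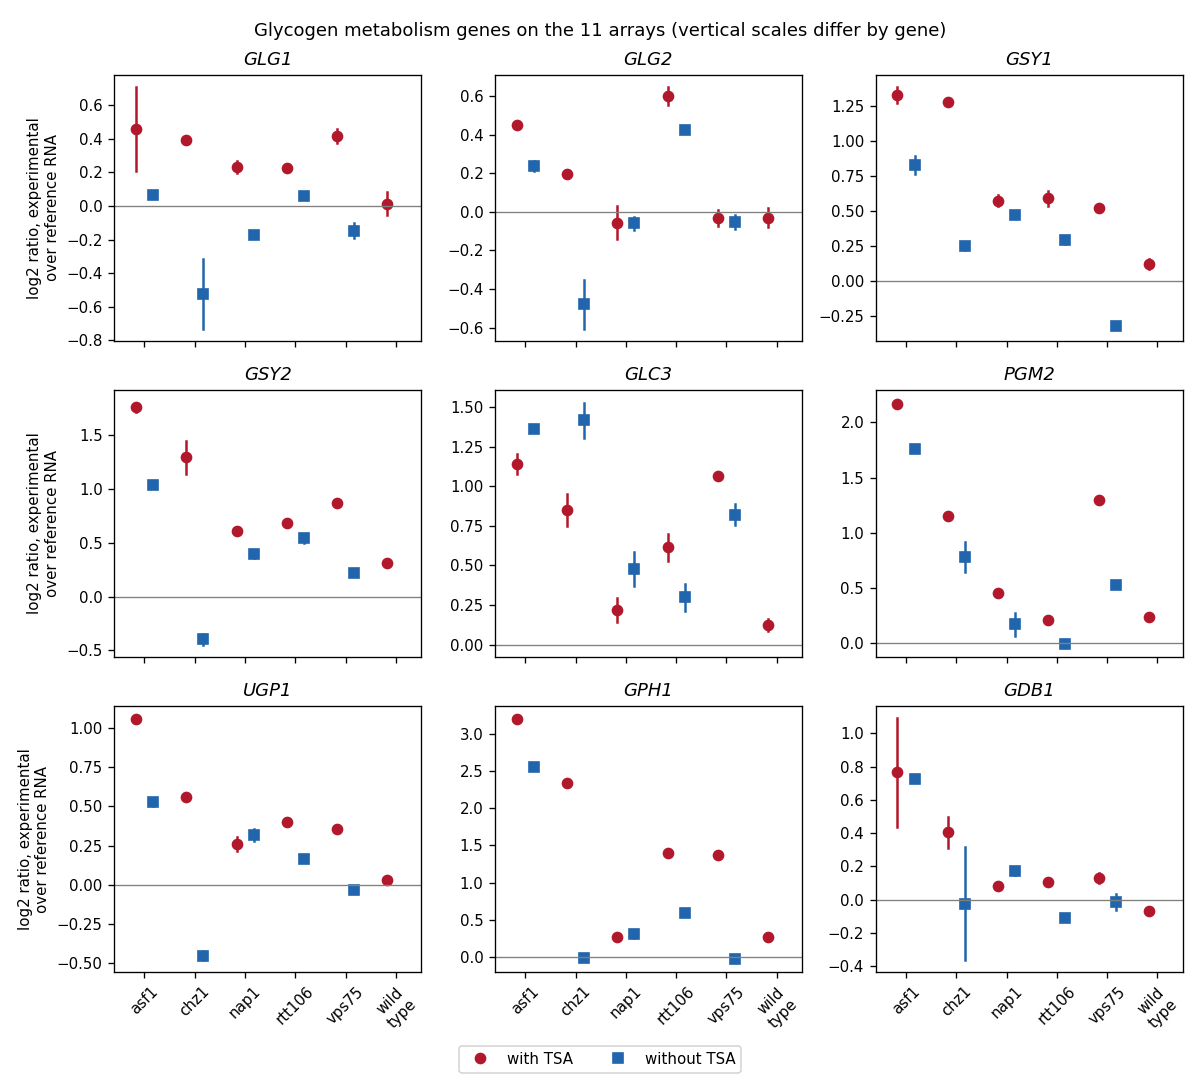
Log2 ratio of experimental over reference RNA (vertical axis) for each gene and strain, with TSA as circles and without TSA as squares. Each point is 1 array, and the vertical lines join its 2 repeat measurements. GPH1 reached 3.20 and 2.55 in the asf1 deletion with and without TSA, and GLC3 is the only gene above 0 on all 11 arrays.

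The chz1 deletion without TSA looked mixed by its ratios, with a median of −0.02 over the 9 genes. GLC3 stood at 1.42 and PGM2 at 0.78, the only 2 members past 1.5-fold (9.68% of all genes were that much higher). The other ratios ran from 0.25 for GSY1 to −0.52 for GLG1, with −0.48 for GLG2, −0.45 for UGP1 and −0.40 for GSY2. On this array both channels were bright for GLG1, GSY1, GSY2, GLC3, PGM2 and GPH1. The deletion strain signals of GLG2 (0.30 times the channel median) and UGP1 (8.76 times) lay within the range of the other 4 untreated deletions, 0.25 to 0.46 and 5.61 to 14.1.

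For GPH1 the signal on that array was 4.25 times the channel median in the chz1 deletion and 4.09 times in its reference RNA. On the other 10 arrays the reference signal of GPH1 lay between 0.18 and 0.42 times the median, with a middle value of 0.37. The reference RNA of the chz1 array without TSA was thus 11.1-fold above that middle value, and 9.73-fold above the highest of the others. GSY1 in the reference stood at 2.64 times the median there, against 0.23 to 0.40 on the other arrays. GLC3 had 1.16 against 0.15 to 0.21, PGM2 2.92 against 0.60 to 0.73, GLG1 1.36 against 0.27 to 0.40 and GSY2 3.76 against 0.69 to 1.58.

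In all, 6 of the 9 genes were at least 2-fold above the middle of the other arrays in this reference RNA, as were 4.24% of the genes tested. Of the remaining genes, GLG2 had 0.46 times the median and GDB1 0.36, both above the highest of the others at 0.38 and 0.30. Thus 8 of 9 members exceeded the highest of the other 10 arrays, as did 23.2% of the genes tested. UGP1 lay within the range of the others (11.1 times the median, against 4.29 to 12.3). This reference still carried CHZ1, at a signal of 3724, so it was not RNA of the deletion strain.

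The experimental channel of the same array was also high. GSY1 and GLC3 each stood at 3.34 times the median in the chz1 deletion without TSA, against at most 0.65 in any of the other 4 deletions without TSA. PGM2 had 5.33 times the median against at most 2.48, and GPH1 4.25 against at most 2.37, the value of the asf1 deletion. Hence the chz1 strain without TSA had the highest signals of GLG1, GSY1, GSY2, GLC3, PGM2 and GPH1 among the 5 deletions without TSA, although its ratios of GPH1, GSY2 and GLG1 were below 0.

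Markers measured on the same array moved with these genes in part. Of 8 stress genes, 3 were at least 2-fold above the middle of the other arrays in this reference RNA (HSP26 7.16-fold, TSL1 4.45-fold and HSP12 2.80-fold), and their summed signal was 20.3 times the median, against 4.06 to 13.5 elsewhere. Of 8 glucose-repressed genes, none was 2-fold higher, and their summed signal was 1.43 times the median, against 1.55 to 2.19. These 8 were dim, with middle reference signals of 0.04 to 0.47 times the median on the other arrays. Of 9 regulators of stress element transcription, the stress activator gene MSN4 alone was at least 2-fold higher (8.49-fold, list median 1.37). Of 7 enzymes at the branch points of the pathway, the hexokinase gene HXK1 (3.02-fold) and GLK1 (2.40-fold) were. The median of these 7 was 1.06, and HXK2 stood at 0.50-fold. Over all genes tested the share at least 2-fold higher was 4.24%. The part of stress or growth stage in these signals was not tested.

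**Figure D2:**
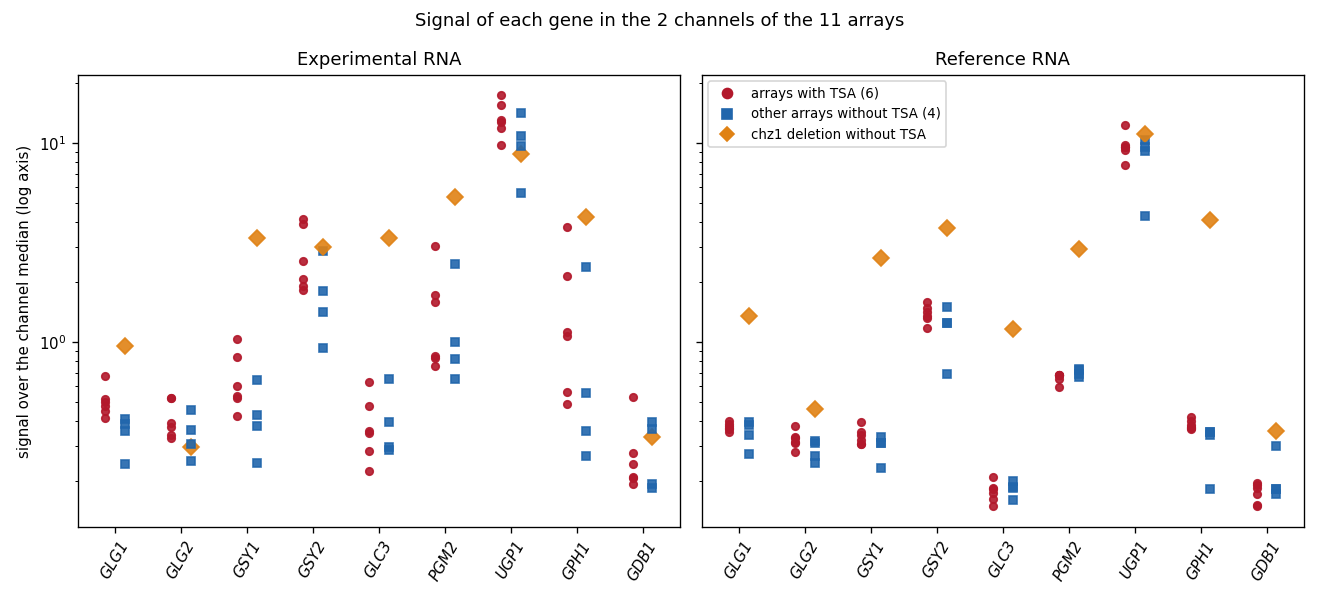
Signal over the median of its channel (logarithmic axis) for each gene on the 11 arrays, for experimental RNA (left) and reference RNA (right). The diamond of the chz1 deletion without TSA lies above all other arrays in the reference RNA for 8 of the 9 genes (23.2% of all genes tested), with GPH1 at 4.09 against at most 0.42.

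With TSA, all 5 deletions had medians of these genes above 0. The asf1 deletion had a median ratio of 1.14 and the chz1 deletion 0.85, whereas rtt106 had 0.59, vps75 0.52 and nap1 0.26. In wild type cells with TSA the median was 0.12, with 7 of 9 genes above 0 (the median over all genes was −0.003). None passed 1.5-fold there (0.98% of all genes were that much higher). The 9 values in wild type ran from −0.07 for GDB1 to 0.31 for GSY2, and would change sign with that array turned.

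In the deletions with TSA, asf1 had 7 of 9 members past 1.5-fold (6.79% of all genes) and chz1 had 5 (3.19%). The rtt106 deletion had 5 (4.56%), vps75 had 4 (4.81%) and nap1 had 1 (0.709%). GSY2 passed on all 5 of these arrays, and GPH1 and GLC3 on all but that of nap1. None of the 9 genes was 1.5-fold lower on any of the 11 arrays. Of all genes, 2.8% were that much lower in asf1, 2.42% in chz1, 0.456% in nap1, 3.82% in rtt106, 1.35% in vps75 and 0.54% in wild type with TSA. Without TSA these shares were 1.08% in asf1, 12.3% in chz1, 0.422% in nap1, 1.33% in rtt106 and 0.743% in vps75. GSY1, GSY2, GLC3, GPH1, GDB1, PGM2, UGP1 and GLG1 were above 0 on all 5 arrays of deletions with TSA, as were 13.6% of the genes tested.

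GPH1 showed the widest range of the group. Its ratios were 3.20 in asf1, 2.34 in chz1, 0.26 in nap1, 1.39 in rtt106 and 1.37 in vps75 with TSA, and 2.55, −0.01, 0.31, 0.60 and −0.02 in the same strains without TSA. Wild type with TSA had 0.27. From high to low, both asf1 arrays came first, then chz1, rtt106 and vps75 with TSA, then rtt106 without TSA. The last 5 were nap1 without TSA, wild type with TSA, nap1 with TSA, chz1 without TSA and vps75 without TSA. Neighbours such as rtt106 and vps75 with TSA differed by less than 0.03, within the gap between repeat measurements of this gene (median 0.03, at most 0.12), which covers no spread between cultures.

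The difference between a strain's array with TSA and its array without TSA was above 0 for most of these genes. On the log2 scale the median of the 9 differences was 0.92 in chz1, 0.56 in vps75, 0.40 in asf1, 0.22 in rtt106 and 0.00 in nap1. In rtt106 and vps75 all 9 genes were above 0, in asf1 and chz1 all but GLC3, and in nap1 5 of 9. Over all genes tested the median difference lay between −0.01 (rtt106) and 0.01 (chz1). Genes above and below 0 were thus about equally common in each strain, and the nap1 count is close to that. Differences past 1.5-fold were found for 6 genes in chz1, where 15.4% of all genes were that much higher, and for 4 in vps75 (0.912%), 2 in asf1 (1.64%), 1 in rtt106 (0.355%) and none in nap1 (0.439%).

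The chz1 difference turned with the channel used. By ratios GPH1 had 2.36 there, GSY2 1.69, GSY1 1.03 and UGP1 1.01. In the experimental channel alone, scaled by quantiles over all channels, the same pair of arrays gave −1.17 for GPH1, −1.98 for GSY1, −1.96 for PGM2, −3.08 for GLC3 and −0.81 for GLG1, and 0.23 for GSY2. By this measure 5 of 9 members were 1.5-fold lower with TSA (13.4% of all genes) and none was 1.5-fold higher (13.7%). That is, GPH1 stood at 2.14 times the channel median with TSA and at 4.25 times without, while its ratio was the higher one with TSA. The reference channels of this pair differed by −3.41 for GPH1 and by a median of −1.67 over the 9 genes.

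In vps75, asf1 and rtt106 the medians by both measures lay within 0.13 of each other. The median of the 9 genes in the experimental channel alone was 0.43 in vps75, 0.37 in asf1 and 0.23 in rtt106, where the reference channels of a pair differed by a median of 0.05, −0.02 and 0.02. In nap1 it was 0.62, with a reference difference of 0.62. Over all genes tested the nap1 medians were 0.22 (SD 1.13) and 0.17 (SD 1.11). In the experimental channel the SD over all genes was 0.36 in asf1, 0.20 in rtt106 and 0.21 in vps75. On the 2 nap1 arrays the deletion strain and the reference RNA lay in opposite channels. In the single channels TSA, dye and array therefore cannot be told apart there. The same holds for the nap1 differences by ratios. A dye effect particular to a gene enters the ratios of this pair with opposite signs and stays in their difference. In the other deletion strains both arrays had the same channel order. The means and the fit over all strains include the nap1 pair, and the size of such a dye effect was not tested.

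**Figure D3:**
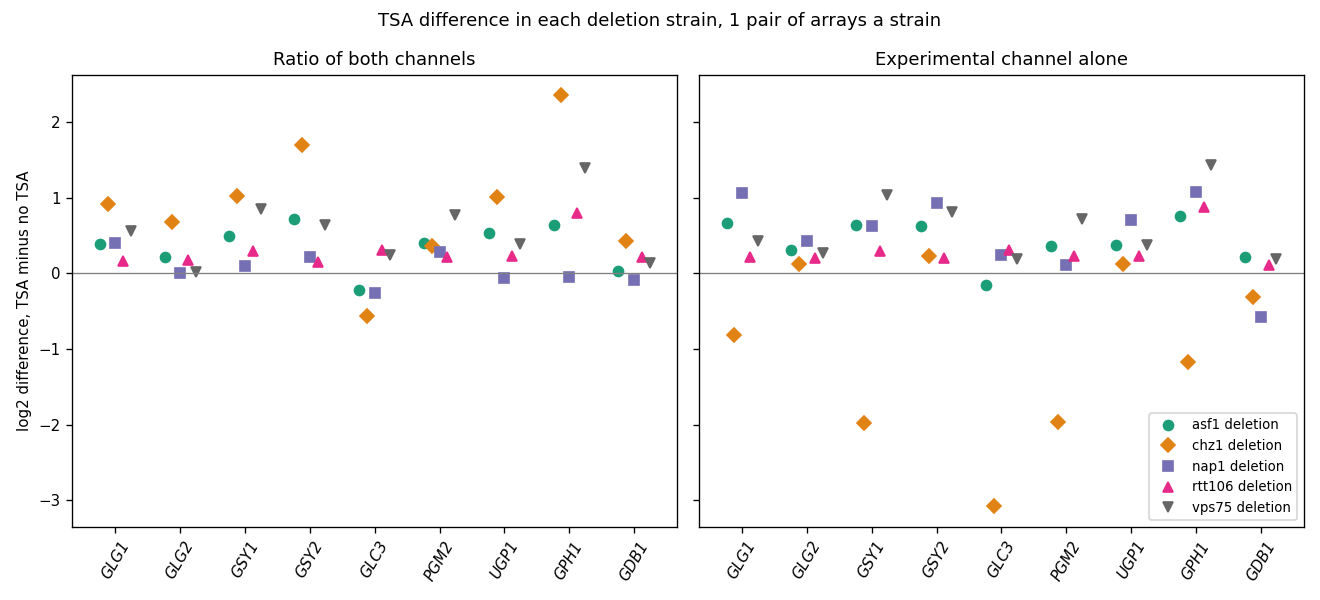
Log2 difference of TSA minus no TSA (vertical axis) for each gene, 1 point per deletion strain, from the ratio of both channels (left) and from the experimental channel alone (right). The chz1 diamonds change side for GLG1, GSY1, PGM2, GPH1 and GDB1, with GPH1 at 2.36 on the left and −1.17 on the right.

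Among the breakdown genes, GPH1 had differences of 0.64 in asf1, 2.36 in chz1, −0.04 in nap1, 0.80 in rtt106 and 1.40 in vps75. Their mean was 1.03 (SE 0.307, 4 of 5 strains above 0), or 0.70 without the chz1 pair. The SE values here and below come from the limma fit, which draws the variance of each gene toward that of all genes. They are therefore not the plain SE of the 5 differences, whose SD was 0.90 for GPH1 and 0.62 for GSY2. GDB1 ratios were 0.76, 0.40, 0.08, 0.11 and 0.13 in asf1, chz1, nap1, rtt106 and vps75 with TSA, and 0.73, −0.02, 0.17, −0.11 and −0.01 without. On the chz1 array without TSA its repeat measurements were 0.68 apart. On the asf1 array with TSA they were 0.65 apart (1.09 and 0.44), the lower one short of 1.5-fold. GDB1, whose enzyme removes the branches that phosphorylase leaves, had 0.04, 0.43, −0.09, 0.22 and 0.14 in the same order, with a mean of 0.15, or 0.08 without the chz1 pair. The phosphorylase gene thus showed the larger differences of this pair in every strain but nap1, where both lay within 0.1 of 0.

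GSY2 encodes the main synthase and GSY1 the minor one. GSY2 ratios were 1.76, 1.29, 0.61, 0.69 and 0.87 in asf1, chz1, nap1, rtt106 and vps75 with TSA, and 1.03, −0.40, 0.40, 0.54 and 0.22 without. GSY1 ratios on the same arrays were 1.33, 1.28, 0.58, 0.59 and 0.52 with TSA, and 0.83, 0.25, 0.47, 0.29 and −0.32 without. Both were highest in asf1 with TSA, and their TSA differences were above 0 in 5 of 5 strains. GSY2 had 0.73 in asf1, 1.69 in chz1, 0.21 in nap1, 0.15 in rtt106 and 0.65 in vps75, with a mean of 0.69 (SE 0.216), or 0.43 without chz1. GSY1 had 0.50, 1.03, 0.11, 0.30 and 0.85 in the same order, with a mean of 0.56 (SE 0.144), or 0.44 without chz1. Across the 11 arrays the ratios of this pair of paralogs correlated at r = 0.84, or 0.91 over the 9 arrays without the chz1 pair. The array probes were not tested for telling the paralogs apart.

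Glycogenin is the protein primer on which a chain is begun. GLG1 ratios were 0.46, 0.39, 0.23, 0.23 and 0.42 in asf1, chz1, nap1, rtt106 and vps75 with TSA, and 0.06, −0.52, −0.17, 0.06 and −0.15 without. GLG2 ratios were 0.45, 0.20, −0.06, 0.60 and −0.03 with TSA, and 0.24, −0.48, −0.06, 0.42 and −0.05 without. GLG1 was above 0 in all 5 deletions with TSA and below 0 in 3 of them without, and GLG2 was highest in rtt106. GLG1 had differences of 0.39 in asf1, 0.92 in chz1, 0.41 in nap1, 0.17 in rtt106 and 0.56 in vps75, with a mean of 0.49 (SE 0.114), or 0.38 without chz1. GLG2 had 0.21, 0.68, 0.00, 0.18 and 0.02, with a mean of 0.22, or 0.10 without chz1. Both were above 0 in 5 of 5 strains, but for GLG2 the nap1 and vps75 values were within its median gap between repeat measurements, 0.08. On the asf1 array with TSA the 2 repeat measurements of GLG1 were 0.50 apart.

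The branching enzyme gene GLC3 went its own way. Its differences were −0.23 in asf1, −0.56 in chz1, −0.26 in nap1, 0.32 in rtt106 and 0.25 in vps75, with a mean of −0.10 (SE 0.141), or 0.02 without chz1. Yet GLC3 was above 0 on all 11 arrays, with 1.14, 0.85, 0.22, 0.61 and 1.07 in asf1, chz1, nap1, rtt106 and vps75 with TSA, and 1.37, 1.42, 0.48, 0.30 and 0.82 without. It was high in 3 of the deletions whether or not TSA was present.

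PGM2 and UGP1 supply the glucose donor. PGM2 ratios were 2.16, 1.15, 0.46, 0.21 and 1.29 in asf1, chz1, nap1, rtt106 and vps75 with TSA, and 1.76, 0.78, 0.17, −0.01 and 0.52 without. UGP1 ratios were 1.06, 0.56, 0.26, 0.40 and 0.35 with TSA, and 0.53, −0.45, 0.32, 0.17 and −0.03 without. PGM2 was thus high in asf1 on both arrays and near 0 in rtt106 without TSA. PGM2, the major phosphoglucomutase, had differences of 0.40 in asf1, 0.36 in chz1, 0.29 in nap1, 0.22 in rtt106 and 0.77 in vps75, with a mean of 0.41 (SE 0.098, 5 of 5 strains), and 0.42 without chz1. UGP1 had 0.53, 1.01, −0.06, 0.23 and 0.38, with a mean of 0.42 (SE 0.147, 4 of 5 strains), and 0.27 without chz1. UDP-glucose is also the donor for trehalose and cell wall glucan, so UGP1 serves more than glycogen. PGM2 was the member whose mean changed least without the chz1 pair.

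Fitted over all genes with strain as a block, limma called 0 of 5921 genes (0%) for TSA after Benjamini-Hochberg adjustment, and 0 of the 9 members, whose smallest adjusted p was 0.814. At an unadjusted p under 0.05 the fit gave 254 genes in all, 2.4% of those tested higher and 1.89% lower, and 6 of the 9 members were among the higher ones (GLG1, GSY1, GSY2, GPH1, PGM2 and UGP1). A difference above 0 in 5 of 5 strains was found for 5 members (GLG1, GLG2, GSY1, GSY2 and PGM2), as for 4.12% of all genes. The members were chosen with this contrast known, so these counts are printed only as a description. The p-values treat strains as replicates and measure only the spread between these arrays.

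The ratios of the 9 genes largely went together across arrays. Of their 36 pairs, 34 had a correlation above 0 over the 11 arrays, with a median of 0.68, and all 36 over the 9 arrays without the chz1 pair, with a median of 0.73. GSY2 and UGP1 were the closest pair (r = 0.97). Set against the mean of the other 8 genes, GPH1 had r = 0.98, GDB1 0.91 and GSY2 0.91 over 11 arrays. Without the chz1 pair these were 0.97, 0.91 and 0.96. GLC3 had 0.39 over 11 arrays and 0.74 without the chz1 pair. GLG2 had 0.52 and 0.46, the lowest of the 9 without that pair. All arrays share a kind of reference RNA and 2 arrays come from each deletion strain, so these values describe the arrays.

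Outside the group, the 6 genes whose ratios most resembled the mean of the 9 were YMR196W, PST2, TFS1, HXK1, APE1 and MTH1. Likeness was the lower of the correlations over 11 arrays and over the 9 arrays without chz1, and ran from 0.97 for YMR196W to 0.94 for MTH1. For TFS1, an inhibitor of carboxypeptidase Y, the ratio was 2.32 in asf1 with TSA and 1.60 without. HXK1 had 2.25 and 1.75 on the same arrays. Of 5912 genes outside the group and past the filter, 97 had a likeness over 0.8.

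Of 16 regulators of the enzymes, all were tested and none was called. Their mean TSA differences were above 0 for 8 and below 0 for 8, but above 0 for 12 of 16 without the chz1 pair, with a median of 0.07. Over all genes tested the median was −0.001, or −0.004 without the chz1 pair. Genes above and below 0 were thus about equally common, which is the background for this list and those below. PSK1, a kinase that acts on glycogen synthase and UDP-glucose pyrophosphorylase, had the highest mean over 5 strains (0.36, or 0.13 without chz1), and PSK2 the lowest (−0.15, or −0.04 without chz1). Without the chz1 pair IGD1 was the highest (0.33) and GLC7, the phosphatase gene, the lowest (−0.09). IGD1, an inhibitor of the debranching enzyme, stood at 1.36 in asf1 with TSA and 0.75 without, and at 0.20 and 1.33 in chz1. PIG2, a subunit that targets the phosphatase Glc7 to the synthase, stood at 1.28 and 1.21 in vps75 with and without TSA, and the cyclin gene PCL7 at 0.94 and 0.87. PIG1, a related subunit, stood at 0.71 and 0.78 in asf1 with and without TSA. REG1, a subunit that brings Glc7 into glucose repression, stood at −0.63 in chz1 without TSA. GAC1, another such targeting subunit, had 0.19 in chz1 with TSA and 1.19 without, where its reference signal was dim (0.11 times the channel median).

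Of 7 enzymes at the branch points of the pathway, 5 had a mean TSA difference above 0, with a median of 0.14, or 0.13 without the chz1 pair, and none called. HXK1 had the highest mean (0.78, or 0.45 without chz1). HXK2, the main hexokinase on glucose, had the lowest over 5 strains (−0.13, or −0.02 without chz1), and PGM1 the lowest without the chz1 pair (−0.07). Glucokinase GLK1 stood at 1.87 in asf1 with TSA and 1.17 without, and at 0.72 and 1.21 in nap1. PGM1, the minor phosphoglucomutase, lay between −0.40 and 0.15 on all 11 arrays, unlike PGM2, which reached 2.16. EMI2, a paralog of GLK1, stood at 1.05 in asf1 with TSA. SGA1, a glucoamylase of sporulating cells, stood at 1.66 and 1.37 in rtt106 with and without TSA. Its reference signal was dim, with a middle value of 0.09 times the channel median outside the chz1 array without TSA.

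Regulators of transcription through stress elements had a median of 0.15 (8 of 9 above 0, none called), or 0.09 without the chz1 pair (6 of 9). MSN4, a stress activator, had the highest mean, 0.87, or 0.45 without chz1, and TPK3, a catalytic subunit of protein kinase A, the lowest at −0.27, or −0.15 without chz1. Its sister activator gene MSN2 had 0.12, or −0.05 without chz1. In asf1 with TSA, BCY1, the regulatory subunit of protein kinase A, stood at 0.69 and the kinase gene YAK1 at 0.76. BCY1 stood at 0.78 and 0.72 in vps75 with and without TSA. MSN4 ratios were 1.29, 1.37, 0.76, 1.13 and 1.04 in asf1, chz1, nap1, rtt106 and vps75 with TSA, and 1.03, −1.19, 0.35, 0.85 and 0.21 without.

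The 2 marker lists differed beside the glycogen genes. Stress genes had a median TSA difference of 0.40 (7 of 8 above 0, none called), or 0.45 without the chz1 pair (8 of 8), and in asf1 their median ratio was 2.29 with and 1.45 without TSA. HSP12, a small heat shock protein gene, stood at 5.19 and 4.51 there. In nap1 the stress genes had a median TSA difference of −0.21, where the 9 glycogen genes had 0.00. Without TSA 6 of 8 stress genes passed 1.5-fold in nap1 (median 0.74), against 0 of 9 glycogen genes (median 0.31) and 1.99% of all genes. Glucose-repressed genes had a median difference of 0.04 (5 of 8 above 0), or 0.02 without the chz1 pair (4 of 8), and their median ratio in asf1 was 0.22 with and 0.20 without TSA. They were higher in rtt106, with medians of 0.59 and 0.61 with and without TSA. On either array 4 of 8 genes passed 1.5-fold (4.56% and 4% of all genes), among them ADH2 at 1.74 and 1.33. As given above, these 8 genes were dim in the reference RNA. The part of these changes in the values of the glycogen genes was not tested.

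**Figure D4:**
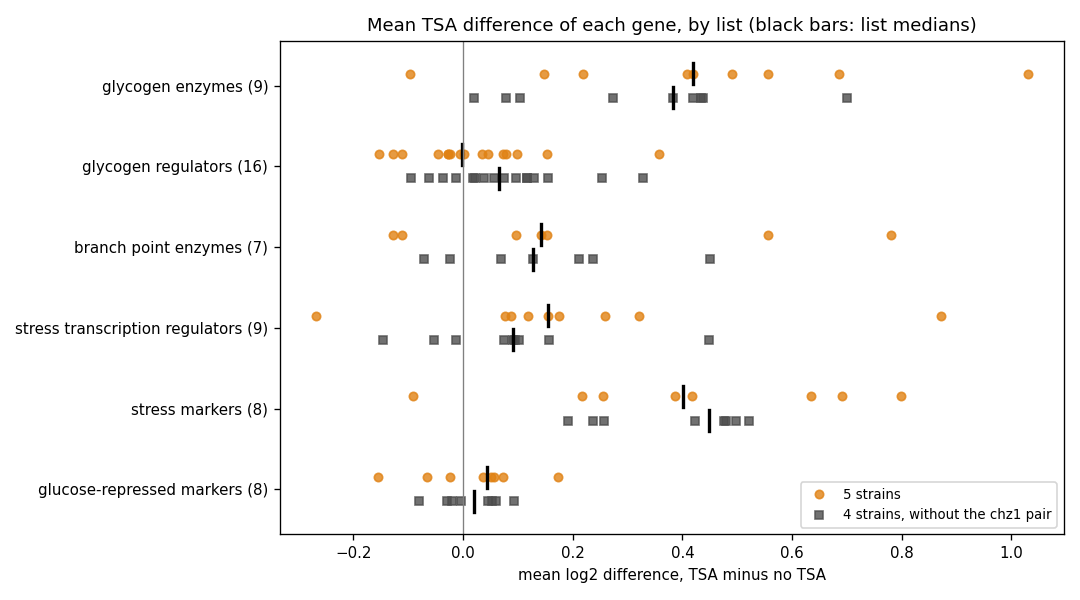
Mean log2 difference of TSA minus no TSA (horizontal axis), with 1 point per gene, for the glycogen enzymes, their regulators and comparison lists, over 5 strains (circles) and over 4 strains without the chz1 pair (squares). Black bars are list medians. The median of the enzymes was 0.42 with and 0.38 without the chz1 pair, and 8 of the 16 regulators lay above 0 over 5 strains, or 12 without that pair.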

How the data were processed

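Per the file headers, the deposited sample files list intensity for each channel, measured 2 times per probe, then a merged intensity and a log10 ratio of these. The series matrix the authors deposited holds log2 values of a fold rounded to 1 decimal; its vps75 columns hold each other's sample file. How background and channel scale were treated was not given in the sources used here.

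After an offset of 50, loess was run on the log2 ratios of each repeat measurement and the results averaged (limma 3.58.1, R 4.3.3). Loess centres every array, which hides any shift common to most genes. Control probes (18 on the chz1 array without TSA) were dropped. Detection meant a signal over 2 times the median of HIS3, LEU2, LYS2 and URA3, and a gene was tested if either channel detected it on 50% or more of the deletion arrays (5921 genes). Symbols came from the RefSeq table of assembly R64 (5756 genes matched). TSA was fitted with lmFit and eBayes on the 10 deletion arrays with strain as a block, which pairs them by design; deviations within pairs correlated at 0.59 (asf1), −0.15 (chz1), 0.40 (nap1), 0.66 (rtt106) and 0.68 (vps75). The fit was tested on simulated data. Alternatives covered offset, normalization, filter, deposited ratios, reference, block and strains left out. Single arrays got no test, and the number of arrays limits the precision.

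The members, the lists of regulators and markers and the naming rule (all members, list extremes and those past 1.5-fold, the 6 genes most like the group) were chosen with earlier results of these data known. One list gene that the rule would name is not reported here. Named outside this rule, after their values were seen, were PGM1, GLC7 and, beyond 2 examples of stress genes, HSP26.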

Additional observations from a re-analysis of the deposited data

Results flagged for a closer look

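With 5 arrays in a group, 36 sets of values were checked for 1 array far from the rest. The rule flags about 1 in 20 sets of unrelated values. These sets share arrays, and the members were chosen with their ratios known, so that rate is no expectation here. In all, 7 sets stood out. Of these, 6 were the reference RNA of the chz1 array without TSA, in which the signal over the channel median was 1.36 for GLG1 (0.27 to 0.40 on the other 4 arrays without TSA), 2.64 for GSY1 (0.23 to 0.33), 3.76 for GSY2 (0.69 to 1.49), 1.16 for GLC3 (0.16 to 0.20), 4.09 for GPH1 (0.18 to 0.35) and 2.92 for PGM2 (0.67 to 0.73). These 6 come from 1 channel of 1 array and are not separate events. The other was the log2 ratio of GPH1 in the asf1 deletion without TSA, 2.55, against −0.02 to 0.60 in the other deletions.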

How the results depend on the processing

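With the experimental channel alone, chosen after seeing the data, the median TSA difference of the members turned to −0.81 in chz1. In nap1 it moved to 0.62, where the median of all genes was 0.22 (SD 1.13). By this measure the mean differences of GDB1 (−0.0739) and PGM2 (−0.11) turned. A reading against the untreated deletion strain, as the channel labels have it, takes the ratios on the TSA arrays as the TSA differences. The deleted gene was present in that reference, so with wild type RNA as reference these values mix deletion and TSA. Limma then called 408 genes in place of 0, 202 of them higher (3.41%), and 6 of 9 members. The members' median of these mean values was 0.78, and GLC3 turned to 0.78. None of these calls is read as an effect of TSA alone. With the series matrix, which exchanges the vps75 arrays, their median TSA difference was −0.49 in vps75 and their median without TSA 0.585 there. With the deposited log10 ratio, which lifts the median of all genes by up to 0.13, the vps75 median without TSA was 0.0561 and the GLC3 mean 0.0141. Scale normalization between arrays brought the asf1 difference to 0.0247. The causes were not tested. The wild type median is −0.12 with that array turned. With 1 pair of arrays left out the count of called genes was 0 each time, with 131 to 461 genes at an unadjusted p under 0.05, and the members' median difference lay between 0.38 and 0.51, and GLC3 turned to 0.0203 without chz1. With no replicate block the count was 0 (146 at an unadjusted p under 0.05). Of 117 values of single members, 107 moved by less than the SD over strains, 5 moved further and 5 turned. Offset and median centring turned none of them. The filter could not move a member value, because ratios were normalized before it was applied, and its values are among the 107.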
